A study of Rattus norvegicus with 7 samples.

Results

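The genes described here encode the machinery of cell division: the kinases and cyclins that start mitosis, the motors, kinetochores and checkpoint that move and watch the chromosomes, and the proteins that cut the cell in 2. A list of 42 mitosis genes was matched by gene symbol, and 40 of them were found among the 17245 genes measured in all 7 libraries. Ccnb2 and Cks2 were not analysed here. Gene expression was measured by RNA sequencing of the meibomian gland, the lipid-secreting gland of the eyelid margin, to compare glands after ultraviolet B (UVB) irradiation of the eyelid with untreated glands. All rats were wild-type female Sprague-Dawley animals aged 3 months. The 4 control libraries are labelled as untreated. The 3 UVB libraries came from rats whose shaved upper lids received 300 mJ/cm2 for 5 min per day over 5 days. The labels do not state whether control lids were shaved or how long after the last exposure the tissue was taken.

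In a dividing cell, cyclin-dependent kinase and Polo and Aurora kinases drive chromosome condensation and spindle assembly. The spindle checkpoint holds back the anaphase-promoting complex until kinetochores are attached, and the complex then releases the sister chromatids and ends mitosis. The meibomian gland is holocrine: its mature lipid cells break down to release their content and are replaced by division of basal cells at the rim of the acini. Transcripts of most mitotic genes are made mainly shortly before division, so in whole tissue they are taken to come from the cells that are cycling. Their source cells were not measured here.

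Mitotic transcripts were higher in the irradiated glands across nearly the whole list. Of the 40 genes, 31 rose, 0 fell and 9 did not pass the test, read against 6.3% of the 13709 tested genes that were called higher and 6.74% called lower. The test was edgeR's quasi-likelihood test, and a gene was called at a Benjamini-Hochberg adjusted p under 0.05 over all genes tested. All 40 fitted values lay above 0, where 49.1% of all tested genes did, and their median log2 fold change was 0.67 (a fold of 1.59) beside -0.0058 over all tested genes. The largest values were those of Cenpe and Plk1, both at 1.06 on the log2 scale, and the smallest was that of Smc4 at 0.22. In 37 of the 40 genes every UVB library lay above every control, as it did for 12.8% of all tested genes; the exceptions were Nusap1, Pttg1 and Anln. The 9 genes that did not pass were Foxm1, Nusap1, Cenpf, Bub1b, Pttg1, Anln, Mki67, Top2a and Smc4.

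The number that passed fell when single libraries were left out: 18 genes passed without UVB library a, 18 without control c and 20 without control b. Calls over all tested genes fell as well, from 1787 to 1214 without UVB a, 851 without control c and 1097 without control b. The median log2 fold change of the mitosis genes was 0.67 in the main fit. It was 0.49 without UVB a, 0.67 without control c and 0.62 without control b. The 18 genes that passed under each of 19 alternative fits at the same threshold were Ccnb1, Ccna2, Plk1, Aurka, Tpx2, Kif20a, Kif2c, Cenpe, Ndc80, Nuf2, Aurkb, Birc5, Bub1, Mad2l1, Cdc20, Ube2c, Espl1 and Ncaph.

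**Figure D1:**
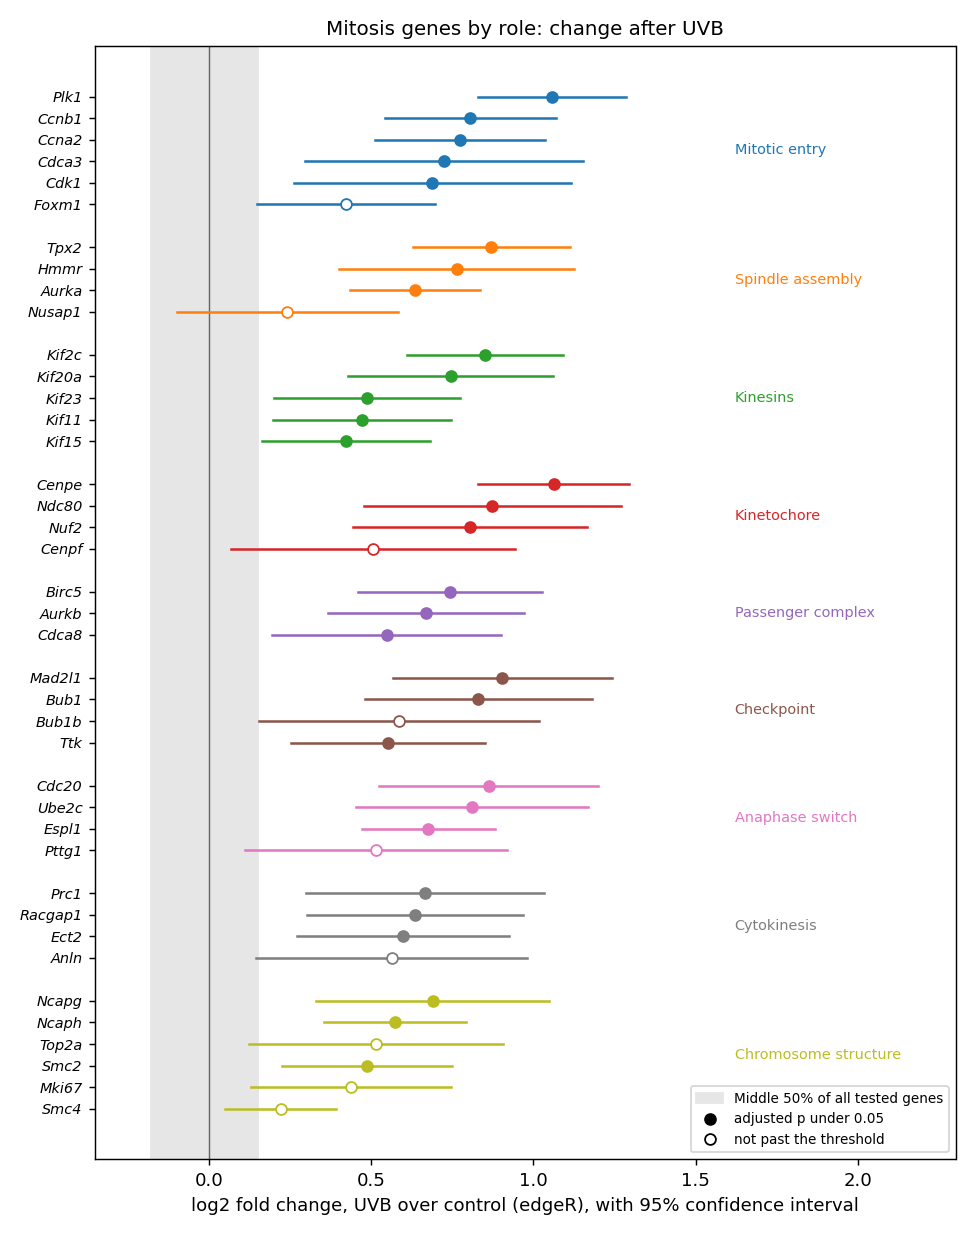
Fitted log2 fold change (UVB over control) of each of the 40 mitosis genes, grouped by role, with the 95% confidence interval as a bar; filled points passed the test over all genes and open points did not, and the grey band is the middle 50% of all tested genes (-0.18 to 0.15). All 40 points lie above 0, from 0.22 (Smc4) to 1.06 (Cenpe).

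Library totals ran from 20680237 to 28784941 counts. The gland's own lipid genes (10 markers such as Scd and Awat2) summed to between 96184 and 119541 CPM (read counts normalised to the size of each library) in the controls and between 91997 and 112880 in the UVB libraries. Scd made up most of these sums (mean 79749 CPM in the controls and 77588 after UVB). Of the 10 markers 0 were called higher and 2 lower, among them Awat2 (mean 9122 CPM in the controls and 5782 after UVB). The share of gland tissue in each library was not tested. The letters a to d of the control libraries and a to c of the UVB libraries are names only and pair nothing. The labels do not say how replicate samples were taken beyond numbering them. Column headers carry a different number for each library, which may be an animal number but matches no sample label. The p-values therefore measure the spread between these samples, which may in part be technical. In bulk tissue, more dividing cells and more RNA per dividing cell cannot be told apart.

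Mitotic genes are known for a pair of promoter elements, the cell cycle genes homology region (CHR) bound through the MuvB complex and the CCAAT box bound by NF-Y. Promoter sequence was matched for 34 of the 40 genes in RefSeq (GRCr8 build), in a window of 300 bases with 250 before the annotated start. The CHR letters TTTGAA or TTCGAA, on either strand, occurred in 25 of the 34 (73.5%), against 13.5% of the 10334 promoters of tested genes and 19.5% of all 27457 promoters. CCAAT on either strand occurred in 24 of the 34 (70.6%), against 37.4% and 37.7%. Both occurred in 19 of the 34 (55.9%), against 5.5% and 7.83%. The E2F letters TTTGGCGC, TTTCCCGC, TTTGCCGC or TTTCGCGC, the site of the factors that act mainly in G1 and S phase, occurred in 1 of the 34 (2.94%, Cdk1), against 3.75% and 2.25%. No motif contains another on either strand, and a match describes letters in this window and not a bound site.

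The 250 bases before the start are shown for the genes with the largest and the smallest response, Cenpe and Smc4, and for Plk1, Cdc20 and Hmmr, the genes with the largest responses among those that hold both motifs. They lie at chr2:226310807-226311056 (plus strand), chr2:155550012-155550261 (plus), chr1:186147408-186147657 (plus), chr5:137255800-137256049 (minus) and chr10:25665216-25665465 (minus) of GRCr8, and capitals mark CHR and CCAAT matches on either strand.
Cenpe: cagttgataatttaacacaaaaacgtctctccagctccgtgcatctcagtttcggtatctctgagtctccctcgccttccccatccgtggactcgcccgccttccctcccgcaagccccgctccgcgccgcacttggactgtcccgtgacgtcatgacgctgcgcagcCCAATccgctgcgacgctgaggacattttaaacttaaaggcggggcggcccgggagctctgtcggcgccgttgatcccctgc
Smc4: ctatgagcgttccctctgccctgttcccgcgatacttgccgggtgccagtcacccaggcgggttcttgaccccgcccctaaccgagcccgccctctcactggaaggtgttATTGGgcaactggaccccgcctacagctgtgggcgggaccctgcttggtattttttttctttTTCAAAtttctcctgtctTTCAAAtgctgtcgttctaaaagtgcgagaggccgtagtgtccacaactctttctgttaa
Plk1: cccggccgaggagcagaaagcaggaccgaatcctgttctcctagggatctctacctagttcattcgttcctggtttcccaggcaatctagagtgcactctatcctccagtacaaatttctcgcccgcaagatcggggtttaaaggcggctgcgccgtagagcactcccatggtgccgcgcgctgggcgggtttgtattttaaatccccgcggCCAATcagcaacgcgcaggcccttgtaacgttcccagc
Cdc20: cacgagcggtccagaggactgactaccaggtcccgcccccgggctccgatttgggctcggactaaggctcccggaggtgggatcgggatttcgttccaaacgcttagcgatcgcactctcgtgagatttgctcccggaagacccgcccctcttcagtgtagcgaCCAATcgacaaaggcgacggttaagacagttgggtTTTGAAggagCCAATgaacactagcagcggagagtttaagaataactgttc
Hmmr: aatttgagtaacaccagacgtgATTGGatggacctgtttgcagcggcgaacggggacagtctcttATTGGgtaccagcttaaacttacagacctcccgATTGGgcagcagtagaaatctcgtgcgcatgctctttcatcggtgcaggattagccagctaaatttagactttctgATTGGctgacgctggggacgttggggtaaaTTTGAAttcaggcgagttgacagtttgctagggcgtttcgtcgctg
Cenpe, with the largest response, holds a CCAAT match that begins 82 bases before the start and no CHR match in the window. Smc4, with the smallest, holds 2 CHR matches, at 78 and 60 bases before the start, and a CCAAT match. All of these lie on the strand opposite to the gene. In Plk1 the CHR match begins 7 bases after the start and so lies past the printed stretch. The response was not larger where a CHR match was found: the 25 genes with a match had a median log2 fold change of 0.59 and the 9 without had 0.74, a description with no test.

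The genes of mitotic entry rose with few exceptions: 5 of 6 passed, with a median log2 fold change of 0.75. Plk1, the Polo-like kinase that acts from centrosome maturation to cytokinesis, stood at 13.0, 12.1, 12.6 and 13.7 CPM in controls a to d and at 30.7, 25.04 and 24.5 CPM in UVB libraries a to c. The groups were far apart, and the controls lay within a narrow band. The control mean was 12.9 ± 0.683 CPM (SD, n = 4) and the UVB mean 26.8 ± 3.43 CPM (SD, n = 3), which gave a fitted log2 fold change of 1.06 (SE 0.101, 95% interval 0.83 to 1.28, adjusted p = 0.00107 by edgeR). Plk1 ranked 219 and Cenpe 218 of the 13709 tested genes by fitted log2 fold change.

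The mitotic cyclins followed. Ccnb1, cyclin B1 and the partner of Cdk1, rose by 0.81 on the log2 scale (SE 0.117, adjusted p = 0.00518). Ccna2, cyclin A2, rose by 0.77 (SE 0.117, adjusted p = 0.00594). Cdk1 itself, the kinase that triggers mitosis, was at 13.5, 12.7, 14.9 and 18.3 CPM in the controls and 31.7, 20.7 and 19.6 CPM after UVB. The lowest UVB library lay just above control d, and UVB library a stood well above the others. The fitted value was 0.69 (SE 0.188, adjusted p = 0.045 by edgeR), and the call was lost without any 1 of 5 libraries (adjusted p up to 0.102; without UVB a, 0.44 with adjusted p = 0.0947). Cdca3, a trigger of mitotic entry, had a value of 0.72 (SE 0.19, adjusted p = 0.0378) and lost its call without any 1 of 6 libraries (0.44 without UVB a).

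Foxm1, the transcription factor that activates late cell cycle genes, lay at the edge of the test. On the length-corrected scale of transcript abundance (TPM) it was at 3.32, 3.26, 3.80 and 4.35 in the controls and 5.76, 5.08 and 4.84 after UVB. The groups did not overlap, but the step was small: the fitted log2 fold change of the counts was 0.42 (SE 0.122, 95% interval 0.15 to 0.70, adjusted p = 0.0503 by edgeR). DESeq2 called it (adjusted p = 0.0206), and so did limma-voom (adjusted p = 0.0454), but without UVB a the adjusted p in edgeR was 0.117. DESeq2 called more genes in general, 2451 against 1787 in edgeR.

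Of the spindle assembly genes, 3 of 4 passed, with a median of 0.70. Tpx2, the spindle factor that activates Aurora A, was at 19.0, 19.7, 19.0 and 23.4 CPM in the controls and 42.8, 34.5 and 34.1 CPM after UVB. Every UVB library lay well above control d, the highest control, and the log2 fold change was 0.87 (SE 0.108, adjusted p = 0.00312). Aurka, the Aurora A kinase of the spindle poles, was at 14.6, 12.9, 12.7 and 13.8 CPM in the controls and 19.8, 20.9 and 22.0 CPM after UVB. It was the only one of the 40 genes in which UVB library a was not the highest library, and it rose by 0.63 (SE 0.0891, adjusted p = 0.00448). Hmmr, a microtubule-binding spindle protein also known as a hyaluronan receptor, rose by 0.76 (SE 0.162, adjusted p = 0.0176), a call lost without UVB a (adjusted p = 0.0531) or control c (adjusted p = 0.0519).

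Nusap1, which bundles spindle microtubules near chromatin, was the gene furthest from the test's threshold. It was at 17.6, 18.7, 18.8 and 22.4 CPM in the controls and 29.2, 19.1 and 20.6 CPM after UVB. UVB libraries b and c lay inside the control range and only UVB a stood above it. Its value of 0.24 (SE 0.151, 95% interval -0.10 to 0.58, adjusted p = 0.319) did not pass, and without UVB a it was 0.035 (adjusted p = 0.879).

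The kinesins, motors that walk along or take apart microtubules, all passed, 5 of 5, but with the smallest median of any role, 0.49. Kif2c, which depolymerises microtubules at centromeres, was at 8.17, 8.17, 8.66 and 9.44 CPM in the controls and 17.1, 14.6 and 14.9 CPM after UVB. The 2 groups were clearly apart, with a log2 fold change of 0.85 (SE 0.107, adjusted p = 0.00321). Kif20a, a motor of the anaphase midzone, rose by 0.74 (SE 0.14, adjusted p = 0.0118). Kif15, a spindle motor that backs up Kif11, was at 9.66, 11.7, 10.5 and 11.1 CPM in the controls and 16.4, 13.2 and 13.7 CPM after UVB.

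The values of Kif15 did not overlap, yet its log2 fold change was 0.42 (SE 0.115, adjusted p = 0.0406) and its call was lost whichever of the 7 libraries was left out (adjusted p 0.0534 to 0.115). Kif11, the motor that pushes spindle poles apart, had 0.47 (adjusted p = 0.0345), lost without any 1 of 5 libraries (adjusted p up to 0.0887). Kif23, the motor subunit of the centralspindlin complex, had 0.49 (adjusted p = 0.0356), lost without any 1 of 6 (adjusted p up to 0.0974). The calls on Kif2c and Kif20a held under each alternative fit.

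The kinetochore genes had the largest median of the 9 roles, 0.84, with 3 of 4 past the test. Cenpe, the kinesin-like motor that carries chromosomes to the spindle equator, was at 12.7, 13.1, 13.3 and 14.0 CPM in the controls and 32.2, 24.7 and 26.3 CPM after UVB. Controls differed little among themselves, and every UVB library was far above them. The control mean was 13.3 ± 0.557 CPM (SD, n = 4) and the UVB mean 27.8 ± 3.95 CPM (SD, n = 3), which gave a fitted log2 fold change of 1.06 (SE 0.103, 95% interval 0.83 to 1.29, adjusted p = 0.00107 by edgeR). Ndc80 and Nuf2, which form a rod that grips microtubules, rose by 0.87 (SE 0.177, adjusted p = 0.0146) and 0.81 (SE 0.161, adjusted p = 0.0142).

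Cenpf, a large protein of the outer kinetochore, behaved otherwise. It was at 24.6, 31.6, 31.7 and 35.9 CPM in the controls and 58.7, 36.0 and 37.4 CPM after UVB. UVB b and c lay just above control d and UVB a far above, and the value of 0.51 (SE 0.19, 95% interval 0.07 to 0.94) did not pass (adjusted p = 0.121; 0.25 without UVB a, with adjusted p = 0.265).

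The chromosomal passenger complex, whose kinase Aurora B corrects faulty attachments and later guides cytokinesis, passed in 3 of 3 genes with a median of 0.67. Birc5, its survivin subunit, was at 5.32, 4.81, 5.59 and 5.43 CPM in the controls and 9.81, 8.40 and 8.40 CPM after UVB. The groups did not overlap, and the log2 fold change was 0.74 (SE 0.126, adjusted p = 0.00797). Aurkb, the kinase, rose by 0.67 (SE 0.134, adjusted p = 0.0143). Cdca8, the borealin subunit, was at 11.4, 10.9, 12.2 and 13.6 CPM in the controls and 22.6, 15.8 and 14.4 CPM after UVB. UVB c lay close to control d. The value of 0.55 (SE 0.157, adjusted p = 0.0491) was the weakest call of the 31 and was lost without any 1 of 6 libraries (adjusted p up to 0.122; 0.33 without UVB a).

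The spindle checkpoint genes passed in 3 of 4, with a median of 0.71. Mad2l1, the Mad2 protein that inhibits Cdc20, was at 4.53, 5.51, 4.93 and 4.66 CPM in the controls and 11.04, 8.28 and 8.28 CPM after UVB. The lowest UVB library was clear of the highest control, and the log2 fold change was 0.90 (SE 0.15, adjusted p = 0.00752). Bub1, a kinase of the checkpoint, was at 22.0, 17.7, 24.4 and 20.6 CPM in the controls and 45.1, 39.1 and 29.1 CPM after UVB. It rose by 0.83 (SE 0.155, adjusted p = 0.0123), with a wide spread among the UVB libraries.

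Ttk, the Mps1 kinase that starts checkpoint signalling, was at 7.89, 8.54, 8.59 and 10.1 CPM in the controls and 14.3, 10.9 and 13.5 CPM after UVB. UVB b came near control d, and the value of 0.55 (SE 0.133, adjusted p = 0.0274) was lost without any 1 of 4 libraries (adjusted p up to 0.0779). Bub1b, the BubR1 protein of the mitotic checkpoint complex, had 0.59 (SE 0.19, adjusted p = 0.0758 by edgeR; 0.0242 by DESeq2) and so did not pass; without UVB a it stood at 0.31 (adjusted p = 0.179).

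Of the genes that switch the cell into anaphase, 3 of 4 passed, with a median of 0.74. Cdc20, which activates the anaphase-promoting complex, was at 20.7, 18.9, 21.1 and 24.96 CPM in the controls and 49.1, 35.7 and 32.2 CPM after UVB. The groups were clearly apart, and the log2 fold change was 0.86 (SE 0.149, adjusted p = 0.00988). Ube2c, the ubiquitin-conjugating enzyme that works with the complex, rose by 0.81 (SE 0.16, adjusted p = 0.0134). Espl1, the separase that cuts cohesin, rose by 0.68 (SE 0.091, adjusted p = 0.00384).

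Pttg1, the securin that restrains separase, was at 4.81, 4.62, 4.97 and 6.84 CPM in the controls and 9.05, 6.77 and 6.97 CPM after UVB. Control d lay between the UVB libraries, so the groups overlapped. The value of 0.51 (SE 0.18, 95% interval 0.11 to 0.92) did not pass (adjusted p = 0.0913).

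Among the cytokinesis genes 3 of 4 passed, within a narrow range of log2 fold changes from 0.56 to 0.67. Prc1, which bundles the microtubules of the midzone, was at 23.4, 24.5, 27.8 and 33.8 CPM in the controls and 53.8, 37.1 and 39.5 CPM after UVB. Control d reached close to UVB b, and the value of 0.67 (SE 0.16, adjusted p = 0.031) was lost without any 1 of 4 libraries (adjusted p up to 0.0766). Ect2 and Racgap1, which switch on RhoA at the division plane, had 0.60 (SE 0.146, adjusted p = 0.0285) and 0.64 (SE 0.148, adjusted p = 0.0257). The call on Ect2 was lost without any 1 of 5 libraries (adjusted p up to 0.0784) and that on Racgap1 without any 1 of 3 (adjusted p up to 0.0715).

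Anln, the anillin scaffold of the contractile ring, was at 39.9, 43.4, 43.1 and 55.7 CPM in the controls and 87.8, 53.5 and 60.7 CPM after UVB. Control d exceeded UVB b. The value of 0.56 (SE 0.181, 95% interval 0.15 to 0.98) did not pass (adjusted p = 0.08 by edgeR; 0.0128 by DESeq2), and without UVB a it was 0.33. No gene counted here under cytokinesis kept its call under every alternative fit, while at least 1 gene of each other role did. That depends on the assignment: Kif20a, counted here as a kinesin and elsewhere as a cytokinesis gene, kept its call.

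The genes of chromosome structure passed in 3 of 6, with a median of 0.50. Mki67, the Ki-67 protein that coats mitotic chromosomes and the usual marker of cycling cells, was at 89.6, 105, 104 and 112 CPM in the controls and 172, 132 and 114 CPM after UVB. UVB c lay barely above control d and UVB a far above it. The group means were 103 ± 9.57 CPM (SD, n = 4) and 139 ± 29.7 CPM (SD, n = 3), and the value of 0.44 (SE 0.135, 95% interval 0.13 to 0.75) did not pass in edgeR (adjusted p = 0.0672). It passed in DESeq2 (adjusted p = 0.0156), and in edgeR without UVB c (0.56, adjusted p = 0.0285), and without UVB a the value was 0.26 (adjusted p = 0.137).

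Top2a, the topoisomerase that untangles sister chromatids, had the same pattern. It was at 52.2, 57.6, 67.1 and 69.4 CPM in the controls and 115, 74.2 and 75.4 CPM after UVB. UVB b and c lay just above control d, and the value of 0.52 (SE 0.17, 95% interval 0.12 to 0.91) did not pass in edgeR (adjusted p = 0.0859) but did in DESeq2 (adjusted p = 0.0173). Without UVB a the value of Top2a was 0.28, and its adjusted p reached 0.179 with another library left out.

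Condensin I, the ring that compacts chromosomes, was uneven. Ncapg was at 8.68, 5.74, 7.21 and 7.78 CPM in the controls and 13.9, 11.3 and 10.5 CPM after UVB, with no overlap. Its value of 0.69 (SE 0.16, adjusted p = 0.0242) was lost without any 1 of 3 libraries (adjusted p up to 0.0708). Ncaph, the subunit that closes the ring, rose by 0.57 (SE 0.0971, adjusted p = 0.00796). Smc2 had 0.49 (SE 0.117, adjusted p = 0.0276), lost without any 1 of 4 libraries (adjusted p up to 0.0745). Smc4, the partner of Smc2 in the ring, was at 62.2, 58.2, 54.2 and 65.9 CPM in the controls and 73.2, 66.4 and 70.6 CPM after UVB. UVB b lay just above control d, and the value of 0.22 (SE 0.0766, 95% interval 0.05 to 0.39, adjusted p = 0.0887) did not pass.

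Set side by side, the role medians ran from 0.49 to 0.84, and the roles overlapped gene by gene. The log2 fold changes ran from 0.51 to 1.06 over the 4 kinetochore genes, from 0.42 to 0.85 over the 5 kinesins, from 0.55 to 0.90 over the 4 checkpoint genes and from 0.56 to 0.67 over the 4 cytokinesis genes, so these 4 ranges overlapped. The kinetochore median was the highest of the 9 in 19 of 20 fits at that threshold; the exception was the fit without UVB a, where spindle assembly was highest (0.65). The lowest median was that of the kinesins in 14 fits and of chromosome structure in 6. The assignment matters for the motors: with Cenpe counted as a kinesin, and Kif20a and Kif23 as cytokinesis genes, the kinesin median was 0.66 instead of 0.49. No test of a difference between roles was made, since genes of a role are not replicates.

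On the length-corrected scale, TPM, the most abundant mitotic transcript was Ube2c at 30.01 ± 4.24 TPM (SD, n = 4) in the controls and 52.6 ± 10.4 TPM (SD, n = 3) after UVB. The least abundant was Ndc80, at 2.82 ± 0.422 TPM in the controls and 5.22 ± 1.37 TPM after UVB. Cenpe was nearly as low, at 2.86 ± 0.138 TPM in the controls and 5.98 ± 0.959 TPM after UVB, so the largest response fell on one of the rarest transcripts. Over the 40 genes, log2 fold change and control TPM were only weakly related (Spearman rank correlation -0.14). Cdk1 was at 19.7 ± 3.28 TPM in the controls and 32.1 ± 9.42 TPM after UVB. Together the 40 transcripts summed to between 409 and 498 TPM in the control libraries and between 620 and 856 TPM in the UVB libraries.

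**Figure D2:**
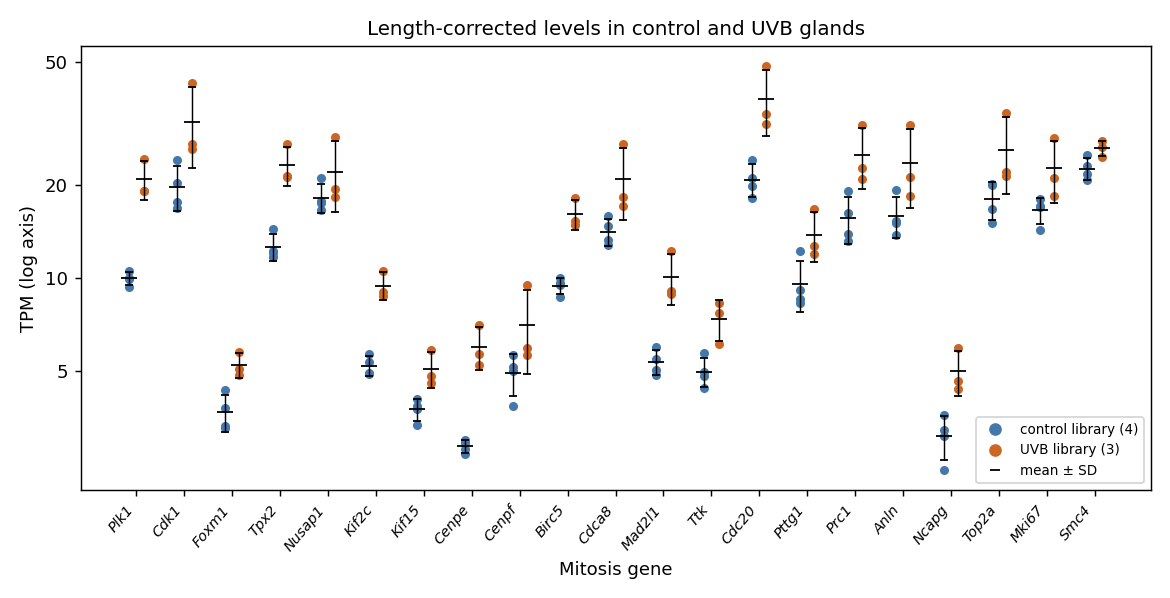
Level in TPM (log axis) of the genes with the largest and the smallest response in each role and of Cdk1, Top2a and Mki67; blue points are the 4 control libraries, orange points the 3 UVB libraries, and black marks the mean with 1 SD. Cenpe runs from 2.86 ± 0.138 TPM in the controls to 5.98 ± 0.959 TPM after UVB with a clear gap, while in Nusap1 the points of the groups overlap.

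Within each group 1 library stood above the others across the list. UVB library a had the highest level of all 7 libraries in 39 of the 40 genes; the median ratio of UVB a to the mean of UVB b and c was 1.33, with a range from 0.921 (Aurka) to 1.65. Among the controls, library d was highest in 33 of the 40, at a median of 1.201 times the mean of controls a to c. The mean log2(CPM + 1) over the 40 genes was 4.02, 4.00, 4.07 and 4.26 in controls a to d and 4.96, 4.57 and 4.57 in UVB a to c. The lowest UVB libraries thus stayed above the highest control on this mean. Without UVB a, all 40 fitted values were still above 0, from 0.035 to 0.95, with a median of 0.49 instead of 0.67.

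**Figure D3:**
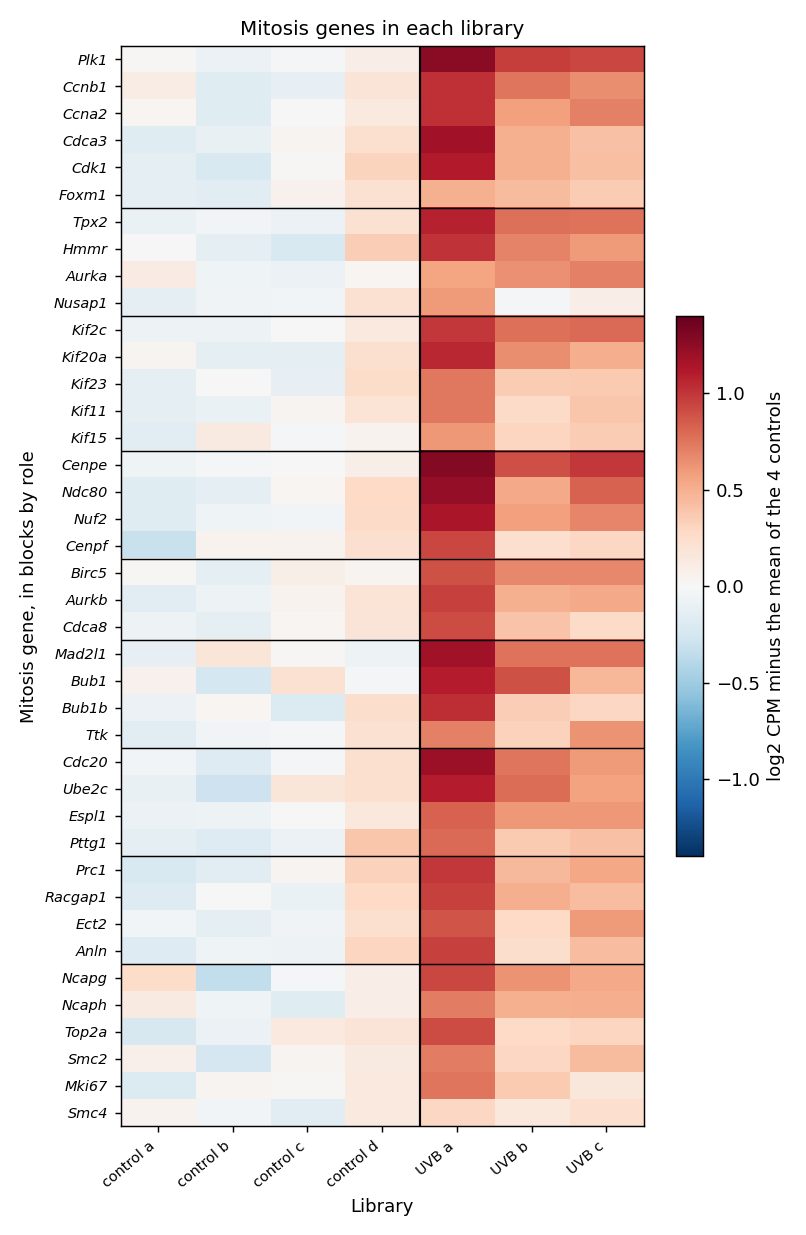
Level of each of the 40 mitosis genes in each of the 7 libraries, as the difference in log2 CPM from that gene's mean over the controls. UVB a is the strongest column, highest in 39 of 40 genes, and control d is the highest control in 33 of 40.

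**Figure D4:**
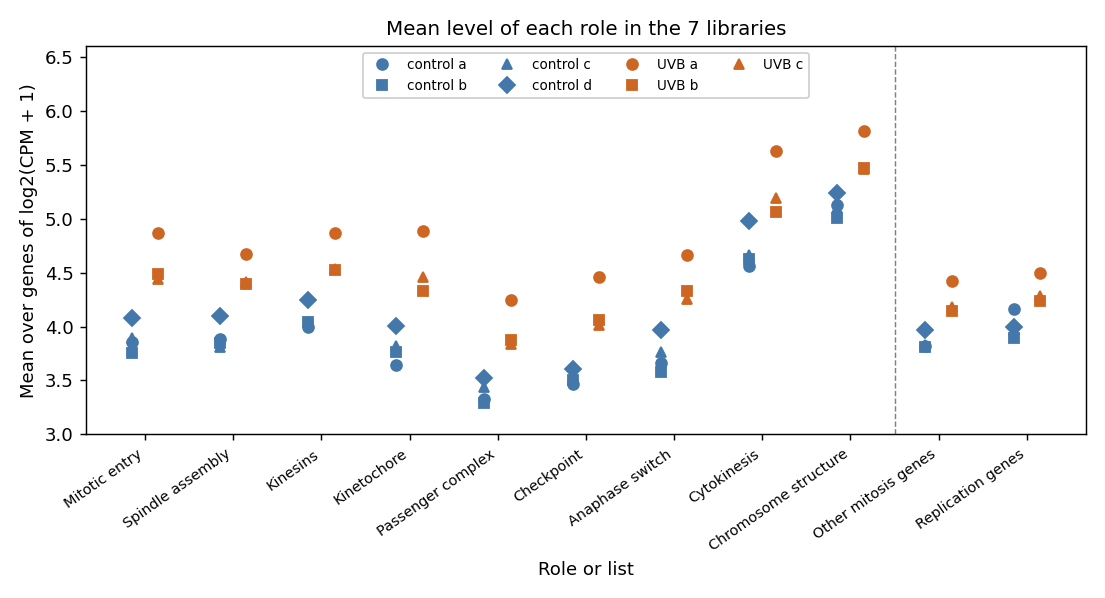
Mean log2(CPM + 1) over the genes of each of the 9 roles, and of the other mitosis genes and replication genes to the right of the dashed line, in each library (blue, 4 controls; orange, 3 UVB libraries). In each of the 9 roles the 3 UVB libraries lie above the 4 controls, with UVB a at the top.

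A further 106 genes of mitosis outside the list were examined to describe the rest of the pathway. That list too was chosen with earlier results of these data known, so it is not independent support. Mis12 was not analysed here. Of the 105 tested, 47 rose, 0 fell and 58 did not pass, with a median log2 fold change of 0.53 and 92 values above 0. Of all tested genes, 6.3% were called higher, 6.74% were called lower and 49.1% had values above 0. The count of 47 became 27 without UVB a, 27 without control b and 25 without control c. The count over all tested genes, 1787, became 851 to 1898 with 1 library left out. Mybl2, the B-Myb factor that joins MuvB to activate G2 genes, had the largest value: 7.14, 4.67, 5.83 and 7.22 CPM in the controls and 19.7, 15.6 and 19.2 CPM after UVB, a log2 fold change of 1.55 (SE 0.162, adjusted p = 0.00157). Depdc1b was at 2.19, 1.77, 1.69 and 1.92 CPM in the controls and 4.98, 4.10 and 3.66 CPM after UVB, a log2 fold change of 1.16 (SE 0.189, adjusted p = 0.00706).

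Both of those genes had every UVB library well above the controls. Kif22, a chromosome-arm motor, spread more widely, at 4.39, 5.88, 7.66 and 9.44 CPM in the controls and 21.5, 12.3 and 12.7 CPM after UVB. The fitted value was 1.17 (SE 0.283, adjusted p = 0.0319), a call lost without any 1 of 4 libraries (adjusted p up to 0.084; without UVB a, 0.87 with adjusted p = 0.0757). The lowest value of the 105 was that of Chmp4c, an abscission factor, at -0.40 (SE 0.117, adjusted p = 0.0522 by edgeR; 0.0242 by DESeq2).

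Read by protein complex, a grouping made after the values were seen, some complexes passed in nearly every gene and others in none. Of all tested genes 6.3% were called higher and 6.74% lower, so 0 calls in a small complex is near that share. The chromosomal passenger complex, with Incenp added to its 3 listed genes, passed in 4 of 4, from 0.55 to 0.76. Condensin I passed in 4 of 5 genes, from 0.22 to 0.69, and the 3 subunits special to condensin II passed in 0, from -0.03 to 0.42. Both parts of centralspindlin, Kif23 and Racgap1, passed. The NDC80 complex passed in 2 of 4 genes, from 0.37 to 0.87, the lower values being those of Spc24 and Spc25. Of 14 mitotic motors 11 passed, from 0.05 (Kif2a) to 1.17 (Kif22).

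None of the 6 core genes of the anaphase-promoting complex that were examined passed, where 13% of all tested genes were called in either direction. These genes (Cdc16, Cdc23, Cdc27, Anapc1, Anapc4 and Anapc5) had values from -0.11 to 0.04. Their 95% intervals all lay between -0.34 and 0.20. The complex's coactivators and ubiquitin-conjugating enzymes passed in 3 of 4. Cdc20, Ube2c and Ube2s passed, and Fzr1, the coactivator of G1, stood at 0.17 (adjusted p = 0.189 by edgeR). Cohesin, the ring that separase cuts, passed in 0 of 5 genes, with values from -0.06 to 0.05 and intervals between -0.21 and 0.17. Bub3, which joins Bub1 and Bub1b, stood at 0.08 (adjusted p = 0.425). The MuvB core genes Lin9 and Lin54 stood at -0.07 (adjusted p = 0.741) and -0.02 (adjusted p = 0.941), beside 1.55 for their partner Mybl2.

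Of 33 listed DNA replication genes, 32 were tested: 10 rose (31.25%), 0 fell and 22 did not pass. Of all tested genes, 6.3% were called higher and 6.74% lower. The median log2 fold change of the replication genes was 0.29. Rrm2, the ribonucleotide reductase subunit that makes deoxynucleotides, rose by 1.36 (SE 0.129, adjusted p = 0.00107), and Orc1, the largest subunit of the origin recognition complex, rose by 1.16 (SE 0.214, adjusted p = 0.0107). Genes that brake the cell cycle did not rise as a list: of 15 tested, 2 rose (13.3%), 1 fell and the median was -0.084. A single fall among 15 is about the share of all tested genes called lower (6.74%). Cdkn1c, the inhibitor p57, rose by 1.17 (SE 0.143, adjusted p = 0.003). Ccng1, cyclin G1 and a p53 target, rose by 0.33 (adjusted p = 0.0201), a call lost without UVB b (adjusted p = 0.054) or UVB c (adjusted p = 0.0596).

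The 1 brake that fell was Cdkn1b, the inhibitor p27, at -0.32 (adjusted p = 0.0249). Cdkn1a, the inhibitor p21 that p53 induces after DNA damage, stood at 0.16 (SE 0.108, 95% interval -0.09 to 0.40, adjusted p = 0.367) and did not pass.

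**Figure D5:**
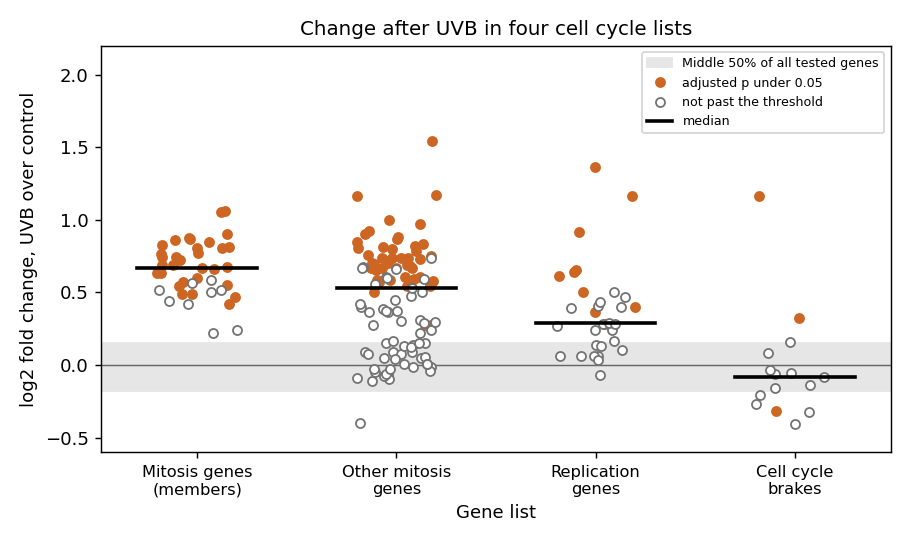
Fitted log2 fold change (UVB over control) of each tested gene of 4 lists: 40 mitosis genes, 105 other mitosis genes, 32 replication genes and 15 cell cycle brakes, with the median of each list as a line filled points for genes past the test and a grey band for the middle 50% of all tested genes. The medians are 0.67, 0.53, 0.29 and -0.084.

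Markers of other cells of the lid moved as well, beside 6.3% of all tested genes called higher and 6.74% called lower. Basal epithelial markers, the layer that holds dividing cells, summed to between 10002 and 12519 CPM in the controls and between 12523 and 13381 in the UVB libraries, and 3 of 7 rose (Krt14, Itga6 and Itgb4). The other 4 basal markers lay below 0 without passing, from -0.30 (Dst) to -0.02 (Krt5), and the median of the 7 was -0.021. Fibroblast markers rose in 3 of 5 genes (summed 2418 to 3756 and 2456 to 4094 CPM), macrophage markers in 4 of 8 (77.8 to 138 and 120 to 219 CPM), leukocyte markers in 2 of 6 (28.5 to 42.9 and 39.7 to 57.8 CPM) and endothelial markers in 2 of 5 (85.3 to 104 and 119 to 138 CPM). These lists were mixed: Col1a1 stood at -0.48 (adjusted p = 0.26) among the fibroblast markers, Cd68 at -0.41 (adjusted p = 0.186) and Csf1r at -0.01 (adjusted p = 0.985) among the macrophage markers, and Cd3e at -0.55 (adjusted p = 0.329) and Ptprc at -0.05 (adjusted p = 0.942) among the leukocyte markers. Hair matrix markers, of another rapidly dividing tissue of the lid, fell in 5 of 7 genes (summed 571 to 876 CPM in the controls and 256 to 666 after UVB). The sum was 283 CPM in UVB a and 256 CPM in UVB b, but in UVB c, at 666 CPM, it lay within the control range. Among meibocyte markers 2 of 10 fell (Awat2 and Plin2), and no marker of the lists stood at 0 in every library. The part of these cells in the rise of the mitotic genes was not tested.

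Some counts are less certain than others. Counts of Ccna2, Foxm1, Kif20a, Anln and Smc4 were not whole in any of the 7 libraries, which a counting program gives where it divides reads between features. By their RefSeq positions (GRCr8), 17 of the 40 genes overlap another gene, among them Plk1 with Ern2, Kif20a with Cdc23, Foxm1 with Tex52, Cdca3 with Usp5 and Aurka with Fam210b, and the handling of strand is not given in the sources used here. Cdc23, the neighbour of Kif20a, stood at -0.11 (adjusted p = 0.288).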

How the data were processed

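RNA from 7 meibomian gland samples (4 control, 3 UVB) was sequenced. One deposited table holds expected counts (estimated reads per gene, not normalised; 12.5% were not whole). The other holds TPM values, which the authors corrected for length and which summed to between 82.0% and 84.1% of their full total per library. The submitters' processing notes name FastQC, Trimmomatic, DRAGEN, Picard and build rn7, with no role or order; the counting program, annotation and strand setting are not given in the sources used here. Unquoted commas shifted 2281 rows of each deposited table, so each row was read backwards from its last cell; 5 rows lacked a value and were left out. This order was checked by dividing counts by TPM: 10 of 11951 genes, and 0 of the 40 members, were off by more than 1.5 times. Columns name the group but not the sample number. No pair of replicate libraries agreed within sampling noise (chi-square per degree of freedom at least 10.9).

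Counts were rounded and tested over the whole table in edgeR 4.0.16 (R 4.3.3; TMM, filterByExpr by group, robust quasi-likelihood fit, two-sided, Benjamini-Hochberg over 13709 genes, threshold 0.05). The SE is |log2 fold change| over the square root of the F statistic. CPM are TMM-normalised. The fits were also tested on simulated data. Members, roles and gene lists were chosen with earlier results of these data known. Values in every library are given for Mki67, Top2a, Cdk1, Foxm1 and the largest and smallest response in each of the 9 roles; Aurka and Bub1 were added after their values were seen. Of the other mitosis genes the 3 largest calls in each direction with a mean count of at least 50 are named, of the replication and brake lists the 2 largest, and Cdkn1a; other names from these lists were chosen after their values were seen. Marker lists not named in the report had 1 of 7 suprabasal genes lower (Krt77), 2 of 4 wound keratinocyte genes higher (S100a9 and Sprr1b), 1 of 3 melanocyte genes lower (Mlana) and 0 of 5 skeletal muscle and 0 of 2 erythroid genes called; 1 further list is not reported here. Other fits used limma-voom (limma 3.58.1), DESeq2 1.42.0, other normalisations and filters, unrounded counts, limma on log2(TPM + 1) or log2(TPM + 0.1), a threshold of 0.01, and each library left out in turn.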

Additional observations from a re-analysis of the deposited data

Results flagged for a closer look

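In 3 values control d stood apart from the other 3 controls by a gap that exceeds Dixon's 95% critical value for 4 samples. For Tpx2 the gap was 0.83 of the group's range (23.4 CPM beside 19.0 to 19.7 CPM), and for Pttg1 it was 0.844 (6.84 CPM beside 4.62 to 4.97 CPM). For the mean log2(CPM + 1) over the other mitosis genes it was 0.873 (3.97 beside 3.81 to 3.83). Chance gives about 1 such gap in 20 groups, and 60 values were examined. These values are not independent, since control d was the highest control in 33 of the 40 mitosis genes.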

How the results depend on the processing

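No mitosis gene changed direction in any alternative fit, and 0 of the 40 were called lower in any. The count of 31 ran from 12 at an adjusted p under 0.01 to 37 in DESeq2, was 19 with log2(TPM + 1) without a filter, and 18 to 27 with 1 library left out. Over all genes the count was 1787, 383 at an adjusted p under 0.01, and 851 to 1898 with 1 library left out. The members' median was 0.49 to 0.74 with 1 library left out, and that of chromosome structure 0.32 to 0.60; the kinesin median became 0.66 with the motors assigned otherwise. Other mitosis genes called higher numbered 29 with log2(TPM + 1) without a filter, 13 at an adjusted p under 0.01 and 25 to 40 with 1 library left out, with a median of 0.33 to 0.58. Other mitosis genes called lower numbered 1 in DESeq2 and 0 to 1 with 1 library left out, Chmp4c in both cases. The cause of these shifts was not tested. By construction a stricter threshold can only lower a count of calls, and a fit with 1 library fewer has less power. Power bears on calls and not on the medians. No paired analysis was possible because no column can be tied to a numbered sample.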
